A study of Homo sapiens with 10 samples.

Results

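Glutamate and GABA are the main excitatory and inhibitory transmitters of the brain, and the genes of their receptors were followed here in wild-type (WT) and ZNF274 knockout (KO) cells. Genes were taken by symbol as subunits of AMPA, kainate, NMDA, delta and metabotropic glutamate receptors and of GABA-A and GABA-B receptors, and only those listed in both deposited count tables were kept. Of 47 annotated genes that fit this rule, 37 were in both tables, out of 19665 genes in both tables and 24050 in either. GRIA2, GRIN1, GRIN2C, GRIN3B and GABRG1 were listed for HEK293T alone, GABRA6 and GABRR2 for NPCs alone, and GABRQ, GABRR3 and GRM6 in neither table. RNA-seq of polyadenylated RNA was performed on 3 WT and 3 KO libraries of HEK293T, a line derived from human embryonic kidney, and on 2 WT and 2 KO libraries of neural progenitor cells (NPCs), which were differentiated from the human embryonic stem cell line H1 through embryoid bodies in neural induction medium. ZNF274, a KRAB zinc finger gene, was removed with Cas9 and a pair of guides on either side of the gene. This was done in HEK293T cells and in the stem cells, so KO NPCs were differentiated from stem cells that already lacked ZNF274. Independent WT and KO clones grown from single cells were used. The labels do not tie a library to a clone, so p-values measure the spread between these libraries, whatever its source.

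Ionotropic glutamate receptors are cation channels built of 4 subunits. AMPA receptors carry fast excitation, NMDA receptors need glutamate together with glycine or serine and pass calcium, and kainate receptors tune release and excitability. Metabotropic receptors act through G proteins. GABA-A receptors are chloride channels built of 5 subunits, most often of alpha, beta and gamma type, while GABA-B receptors are pairs of GABBR1 and GABBR2. In immature neural cells, GABA and glutamate signal before synapses exist, and GABA can depolarise them.

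The libraries held between 18621266 and 32285876 counts on genes. ZNF274 had 423 to 492 counts in the WT HEK293T libraries, 491 and 496 in the WT NPC libraries, and 0 in each of the 5 KO libraries. Markers of other cell types moved with the genotype in NPCs. Calls follow the test and thresholds given below, under which 8.36% of all genes fell and 8.45% rose. Of 9 neuronal markers, 4 fell and 1 (ELAVL4) rose. Their summed level, 1084 to 1177 CPM (counts scaled to library size) in WT and 174.7 to 219.7 CPM in KO libraries, was mostly MAP2 (means of 1041 and 147.4 CPM), while TUBB3 (6.63 and 6.36 CPM) and STMN2 (16.5 and 20.7 CPM) were not called. Of 10 mesenchymal markers, 5 rose and 0 fell, with a summed level of 1329 to 2218 CPM against 5273 to 6102 CPM that was mostly COL1A1 and COL1A2. Of 5 smooth muscle markers, TAGLN and DES rose and ACTA2, CNN1 and MYH11 were not called, and their summed level of 874.1 to 1157 CPM against 3719 to 3768 CPM was mostly TAGLN (means of 941.5 and 3499 CPM). Of 10 neural progenitor markers, 6 fell (SOX1, SOX2, PAX6, FABP7, LHX2 and OTX2), HES5 had 0 counts in the KO libraries, and the summed level, mostly NES, overlapped at 3033 to 4020 CPM against 3326 to 3407 CPM. KRT8 and KRT18 rose among 5 epithelial markers (summed level 341.6 to 596.3 CPM against 1306 to 1468 CPM), SOX9 and SNAI2 among 5 neural crest markers (41.6 to 62.7 CPM against 217.2 to 280.3 CPM), and SOX10 and CSPG4 among 4 oligodendrocyte lineage markers (11.9 to 15.4 CPM against 172.7 to 190.1 CPM, mostly CSPG4). LIN28A fell among 3 pluripotency markers (138.1 to 160.9 CPM against 60.1 to 64.4 CPM), and 0 of 5 astrocyte markers were called. None of the mesenchymal or smooth muscle markers was at 0 in the WT group, so the WT libraries hold their transcripts too. The part of these markers in the results below was not tested. In bulk RNA, fewer cells of a type and less RNA per cell cannot be told apart.

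In WT NPCs, AMPA, kainate and GABA-A subunits led the set. Levels of different genes were compared per length, as CPM per kilobase of annotated exon (RPKM). GRIA1, the GluA1 subunit of AMPA receptors, was highest at 18.7 ± 11.4 RPKM (SD, n = 2). GRIK5, a kainate subunit that assembles only with other kainate subunits, followed at 6.08 ± 1.06 RPKM, then GRM3, a metabotropic receptor that lowers cyclic AMP, at 4.71 ± 0.53 RPKM (SD, n = 2 each). The lower GRIA1 library stood above both GRIK5 libraries, and both GRIK5 libraries stood above both GRM3 libraries. GABRA3, GABRA5 and GABBR1 were at 1.95 ± 0.11, 1.63 ± 0.98 and 1.43 ± 0.61 RPKM, where the range of GABRA5 covered GABRA3 and overlapped GABBR1, and 30 of the 37 genes had mean levels below 1 RPKM. Of the 37 genes, 18 had a mean of at least 1 CPM in WT NPCs and 11 in KO NPCs. The WT NPC libraries S3 and S5 differed from each other in opposite ways for different subunits: GRIA1, GRIA4, GRIN2A and GRIN2B were higher in S5, and GRIK1, GABRA5 and GABRB2 in S3.

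**Figure D1:**
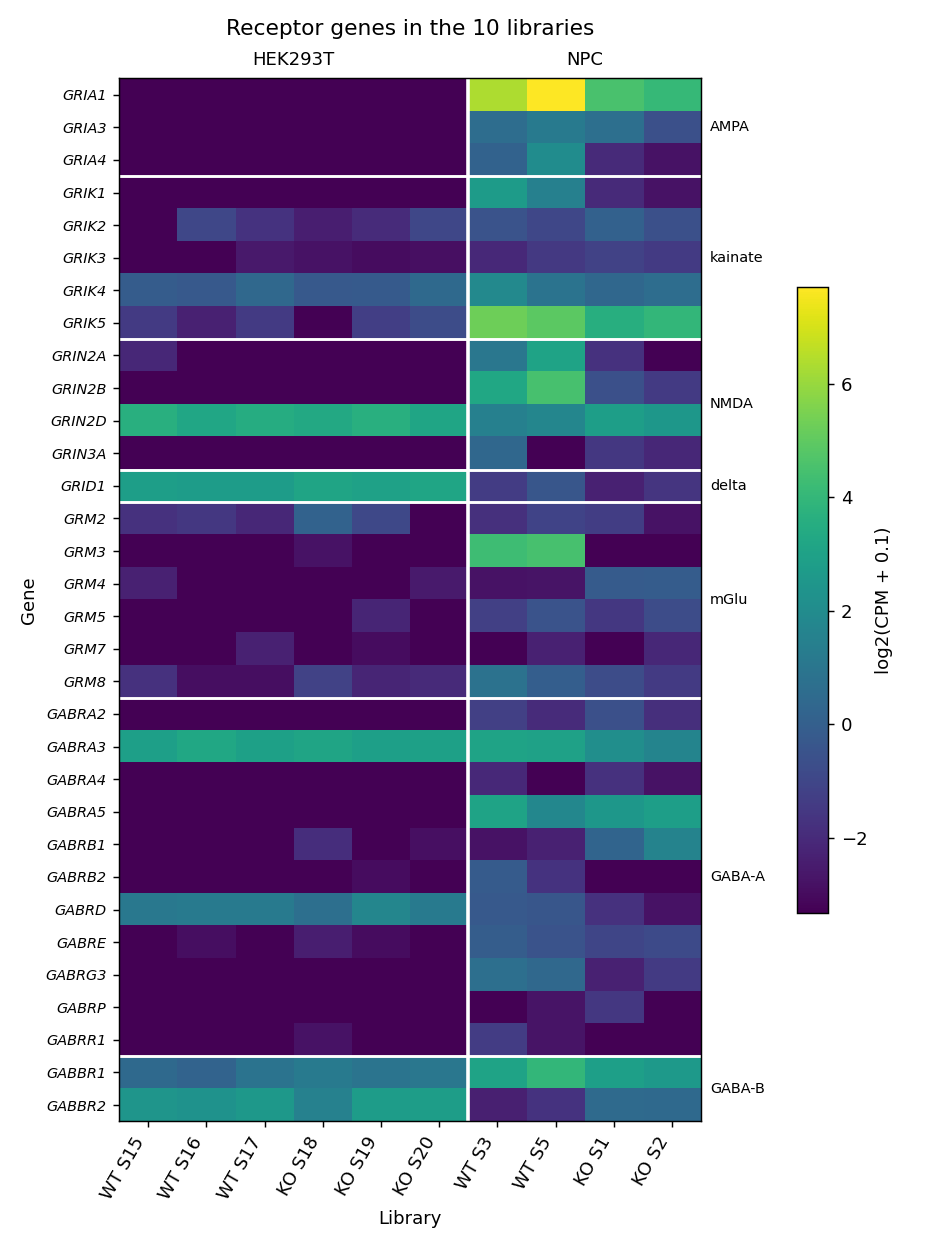
Level of 32 receptor genes in each library, as log2(CPM + 0.1), with genes in rows by family and libraries in columns. CPM is scaled within each cell type. AMPA subunit rows are dark in all HEK293T libraries, and most rows that are bright in WT NPCs are darker in KO NPCs.

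To ask how the receptor genes differ in NPCs from KO stem cells, KO libraries were compared with WT libraries in edgeR (quasi-likelihood test). A call needed a fold change above 2 and an adjusted p below 0.05 (Benjamini-Hochberg, over all 20577 genes tested). All 37 genes entered the test. Of the receptor genes, 20 were not called, 13 were called lower, among them GRIA1, GRIN2B, GRM3 and GRIK1, and 4 were called higher, namely GABRB1, GABBR2, GRM4 and GRIN2D. The 13 lower genes are 35.1% of the set, beside 8.36% of all genes called lower, and the 4 higher genes are 10.8%, beside 8.45% of all genes called higher. The median log2 fold change of the 37 genes was -1.32, and -0.995 with 4 genes that lack counts in the KO group set at their bound, against -0.0219 over all genes. Of the 37 genes, 26 lay below 0, beside 51.2% of all genes. At an unadjusted p below 0.05 there were 20 of the 37 genes and 40.3% of all genes. Without KO library S1 or without KO library S2, 8 genes were called lower, and the same 8 in both cases (GRIA1, GRIK1, GRIK5, GRIN2A, GRIN2B and GRM3 among them). Higher calls numbered 1 without S1 (GABRB1) and 0 without S2. Leaving out a library leaves its group with a single one, which is then assumed to vary like the other group.

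**Figure D2:**
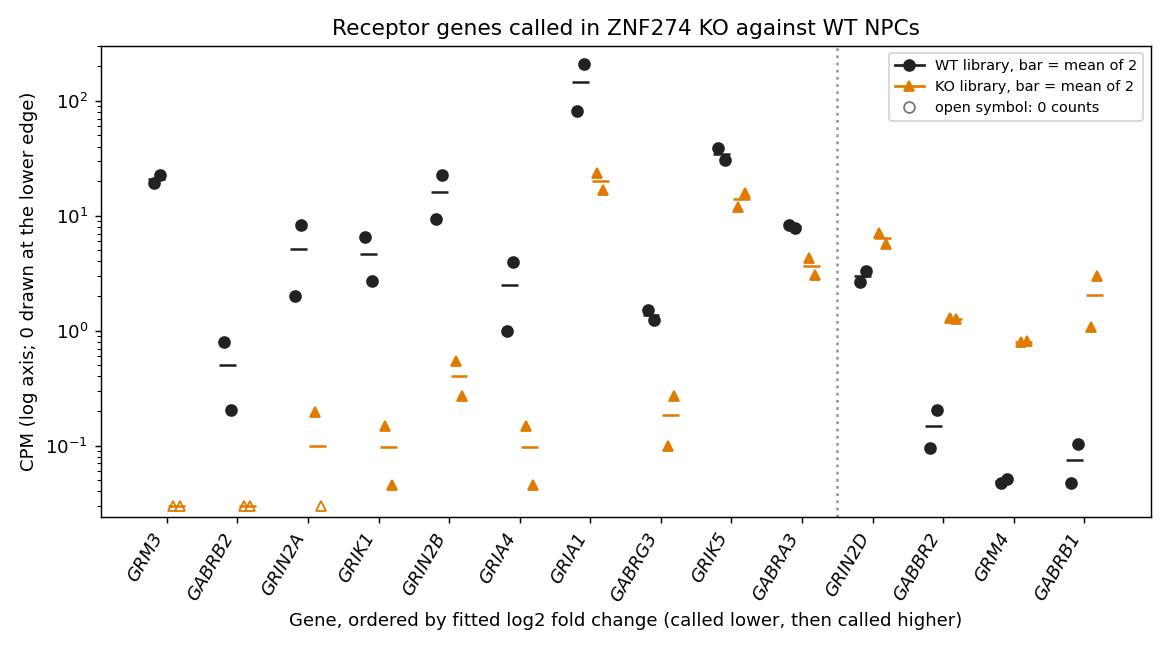
CPM (log axis) of 14 receptor genes called in KO against WT NPCs, with 1 symbol per library and a bar at the mean of 2 libraries. Both KO libraries lie below both WT libraries for the 10 genes on the left and above them for the 4 on the right. Open symbols have 0 counts and sit at the lower edge.

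To place these genes in the genome, the 250 bases before the start of the canonical transcript (GENCODE, hg19) are printed for 2 genes that fell, GRIA1 as the highest gene of the set and GRM3 as the one that went from 408 and 444 counts to none, and for GABRB1 and GABBR2, which rose. Sequences read 5′ to 3′ on the strand of the gene, and capitals mark CG dinucleotides, where DNA methylation mostly occurs.
GRIA1, chr5:152869980-152870229, + strand: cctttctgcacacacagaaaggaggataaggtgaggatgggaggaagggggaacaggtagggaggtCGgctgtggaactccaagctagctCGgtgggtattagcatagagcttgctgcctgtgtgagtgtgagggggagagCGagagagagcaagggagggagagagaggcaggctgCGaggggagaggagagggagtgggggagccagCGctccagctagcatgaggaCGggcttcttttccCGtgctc
GRM3, chr7:86272975-86273224, + strand: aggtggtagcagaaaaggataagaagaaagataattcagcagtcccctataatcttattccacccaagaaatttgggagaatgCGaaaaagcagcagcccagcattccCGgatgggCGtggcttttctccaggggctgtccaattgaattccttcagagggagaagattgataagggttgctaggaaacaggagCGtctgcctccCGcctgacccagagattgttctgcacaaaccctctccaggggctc
GABRB1, chr4:47033334-47033583, + strand: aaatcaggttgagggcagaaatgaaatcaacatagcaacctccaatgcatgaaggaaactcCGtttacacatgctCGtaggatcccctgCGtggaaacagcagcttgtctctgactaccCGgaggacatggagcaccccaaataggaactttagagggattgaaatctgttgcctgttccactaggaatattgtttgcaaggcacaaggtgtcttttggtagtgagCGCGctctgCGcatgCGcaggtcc
GABBR2, chr9:101471218-101471467, - strand: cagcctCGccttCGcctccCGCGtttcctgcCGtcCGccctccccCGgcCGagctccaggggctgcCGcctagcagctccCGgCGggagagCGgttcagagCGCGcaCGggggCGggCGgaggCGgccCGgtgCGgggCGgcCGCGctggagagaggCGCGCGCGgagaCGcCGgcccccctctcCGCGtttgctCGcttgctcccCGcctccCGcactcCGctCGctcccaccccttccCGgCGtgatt

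The upstream sequences fell into CG-rich and CG-poor ones in both directions of change. GABBR2 held 38 CG, while GRM3, GRIA1 and GABRB1 held 5, 7 and 8. Over the 13 genes called lower the number ran from 5 to 35 (median 11), over the 4 called higher from 5 to 38 (median 8.5) and over the 20 not called from 3 to 44 (median 22.5), beside a median of 20 over the windows of 16249 protein-coding genes. Among motifs sought on both strands, CANNTG was in 14 of 37 windows (37.8%, against 53.9% of all windows) and GGACAGC in 3 (8.11%, against 5.3%), those of GRM2, GRM3 and GABRG3. ACAAAG was in 0 of 37 windows and in 9.15% of all windows. These matches describe the letters and are no evidence of binding.

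AMPA receptor genes were lower in KO NPCs for 2 of 3 members. GRIA1 (hg19 chr5, + strand) was at 81.9 and 208 CPM in the WT libraries S3 and S5 and at 23.4 and 16.7 CPM in the KO libraries S1 and S2, a 7.23-fold decrease (log2 fold change -2.85, SE 0.42, adjusted p = 0.00299, edgeR). The groups did not overlap, although the WT libraries differed from each other by more than the KO libraries did, and without S5 the log2 fold change was -2.04. GRIA4, which gives fast-gating channels, had 21 and 78 counts in WT and 3 and 1 in KO libraries, a ratio of 25.8 (95% counting interval 9.78 to 96.7, adjusted p = 0.0116). Without KO library S1 or S2 its adjusted p was 0.0502 or 0.0715, with voom it was 0.0721, and without WT library S5 the log2 fold change went from -4.63 to -3.32. GRIA3, on the X chromosome, was at 1.42 and 2.20 CPM in WT and 1.53 and 0.54 CPM in KO libraries, and these overlapped (adjusted p = 0.351). The summed AMPA level was 84.3 and 214 CPM in WT and 25.1 and 17.3 CPM in KO libraries, nearly all of it GRIA1.

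Among NMDA receptor genes, 2 fell and 1 rose. GRIN2B, the subunit typical of early brain development, was at 9.28 and 22.7 CPM in WT and 0.543 and 0.27 CPM in KO libraries, a 39.1-fold decrease (log2 fold change -5.29, SE 0.58, adjusted p = 0.000909, and a log2 fold change of -4.52 without WT library S5). GRIN2A, which joins NMDA receptors later in development, was at 1.99 and 8.29 CPM in WT and at 0.198 and 0 CPM in KO libraries (log2 fold change -5.67, SE 1.09, adjusted p = 0.00872). The GRIN2A fold change was -4.31 without WT library S5, -6.36 without WT library S3, -4.67 without KO library S2 and -9.75, which depends on the prior count, without KO library S1, and the call was lost with voom (adjusted p = 0.0799). GRIN2D, another early subunit, went the opposite way, from 2.65 and 3.28 CPM to 7.11 and 5.63 CPM (log2 fold change 1.10, SE 0.30, adjusted p = 0.0326). That call is close to the fold threshold and was lost without WT library S3 (0.957), without KO library S1 (0.925, adjusted p = 0.233) and without KO library S2 (adjusted p = 0.104). Within a library, free of scaling, GRIN2D had 0.286 and 0.144 counts per GRIN2B count in WT and 13.1 and 20.8 in KO libraries, with 95% counting intervals of 0.208 to 0.386, 0.109 to 0.188, 7.10 to 26.8 and 9.31 to 57.9. The ratio was thus higher in both KO than in both WT libraries. The annotated exons of GRIN2B span 31134 bases and those of GRIN2D 5511 bases, so per length the WT levels were close (0.515 and 0.540 RPKM) and a count ratio does not rank the subunits. GRIN3A, a glycine-binding subunit, had 25 and 0 counts in WT and 5 and 3 in KO libraries and was not called.

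Kainate receptor genes fell for 2 of 5 members and did not pass the test for 3. GRIK1, the GluK1 subunit, had 139 and 53 counts in WT and 3 and 1 in KO libraries, a ratio of 50.1 (95% counting interval 19.3 to 186, adjusted p = 0.00201). Its log2 fold change of -5.53 ran from -6.51 to -4.75 when WT library S3 or either KO library was left out, and the call held. GRIK5 was at 38.9 and 30.4 CPM in WT and 11.9 and 15.8 CPM in KO libraries, a 2.50-fold decrease (log2 fold change -1.32, SE 0.21, adjusted p = 0.00389). Its call was lost when all 10 libraries shared one estimate of the spread (adjusted p = 0.057). GRIK4, a partner subunit like GRIK5, was at 3.50 and 1.74 CPM in WT and 1.19 and 1.44 CPM in KO libraries (log2 fold change -0.99, adjusted p = 0.157). GRIK2 and GRIK3 had at most 20 counts in any NPC library and did not pass the test (adjusted p = 0.562 and 0.661).

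GRID1, a delta receptor gene that encodes a synaptic organiser, had 6 and 13 counts in WT and 2 and 5 in KO libraries and did not pass the test (adjusted p = 0.273).

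Of 7 metabotropic glutamate receptor genes, 2 fell, 1 rose and 4 did not pass the test. GRM3 (hg19 chr7, + strand) gave the clearest separation of the set. WT libraries S3 and S5 held 408 and 444 GRM3 counts, or 19.3 and 22.7 CPM, and KO libraries S1 and S2 held 0. Against a floor of 3 counts per library, GRM3 was at least 148-fold lower (adjusted p = 8.31e-05). GRM3 was thus the member with the most WT counts among the 4 that had none in the KO group. GRM4, a presynaptic receptor, had 1 count in each WT library and 16 and 18 counts in the KO libraries, a ratio of 16.3 (95% counting interval 4.17 to 140, adjusted p = 0.016), and its adjusted p was 0.09 and 0.0936 without KO library S1 and S2. GRM8 was at 1.66 and 0.87 CPM in WT and 0.494 and 0.27 CPM in KO libraries and missed the threshold (log2 fold change -1.72, adjusted p = 0.0865). GRM2, GRM5 and GRM7 had at most 12 counts in any NPC library. The summed level of the family was 23.3 and 25.5 CPM in WT and 1.93 and 1.98 CPM in KO libraries.

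**Figure D3:**
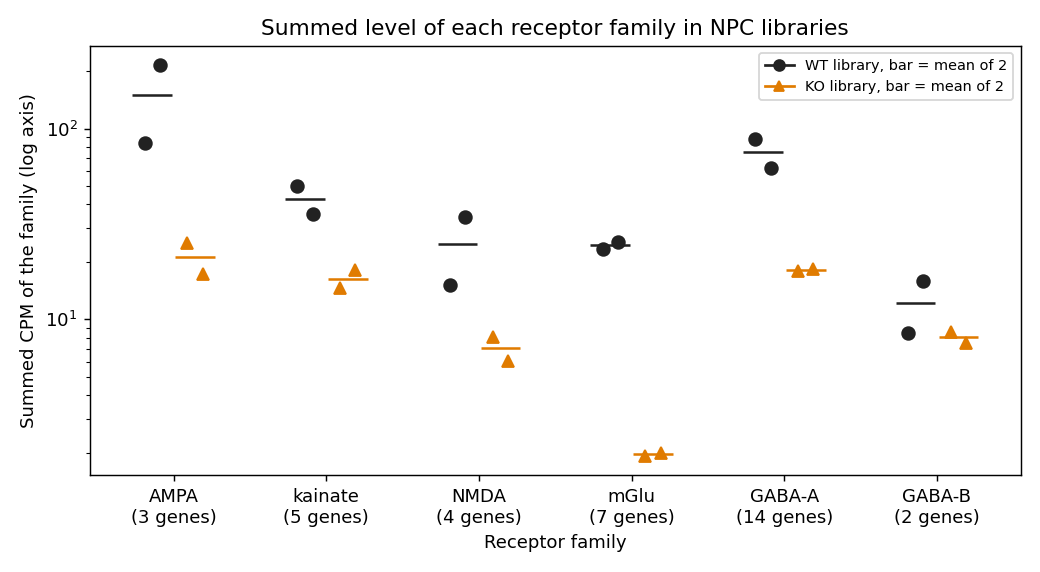
Summed CPM (log axis) of the members of 6 receptor families in the 2 WT and 2 KO NPC libraries, with a bar at each mean. In summed CPM, KO libraries lie below WT libraries in 5 of the 6 families drawn. The GABA-B sums overlap (8.47 and 15.9 CPM in WT, 8.59 and 7.48 CPM in KO). Per length, the NMDA sums overlap as well (1.035 and 1.771 RPKM in WT, 1.36 and 1.067 RPKM in KO).

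Among the 14 GABA-A receptor genes, 4 fell, 1 rose and 9 did not pass the test. GABRA3, an alpha subunit of immature neurons, was at 8.38 and 7.78 CPM in WT and 4.25 and 3.06 CPM in KO libraries, a 2.21-fold decrease (adjusted p = 0.0228) that lost its call without KO library S1 (adjusted p = 0.0764) or S2 (adjusted p = 0.17). GABRG3, a gamma subunit, had 32 and 24 counts in WT and 2 and 6 in KO libraries (log2 fold change -2.84, SE 0.67, adjusted p = 0.0199, and 0.13 and 0.0524 without KO library S1 and S2). GABRB2, the beta subunit of most adult receptors, had 17 and 4 counts in WT libraries and none in KO libraries S1 and S2, which makes it at least 3.65-fold lower (adjusted p = 0.046), and the call was lost without any 1 of WT library S3 and KO libraries S1 and S2 (adjusted p = 0.141 to 0.145).

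The beta subunit genes GABRB2 and GABRB1 moved in opposite directions. GABRB1, another beta subunit, had 1 and 2 counts in WT and 22 and 66 in KO libraries, a ratio of 28.1 (95% counting interval 9.31 to 139, adjusted p = 0.00674, and 0.0662 without KO library S2). Per length, GABRB1 reached 0.699 ± 0.464 RPKM in KO NPCs (SD, n = 2). GABRA5, an alpha subunit abundant in developing cortex and hippocampus, was at 8.33 and 3.38 CPM in WT and 5.58 and 7.12 CPM in KO libraries, with the KO values inside the WT range (log2 fold change 0.11, SE 0.43, adjusted p = 0.873). GABRD, the delta subunit of receptors outside synapses, had 16 and 13 counts in WT and 4 and 1 in KO libraries and missed the threshold (log2 fold change -2.52, adjusted p = 0.0735). GABRD was called lower when all 10 libraries shared an estimate of the spread, and with another count filter. GABRA2, GABRA4, GABRE, GABRP and GABRR1 had at most 18 counts in any NPC library. GABRA6, an alpha subunit of cerebellar granule cells that is in the NPC table alone and so no member, had 0 and 1 counts in WT and 15 and 22 in KO libraries (adjusted p = 0.0157).

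GABA-A subunit genes lie in clusters, and neighbours differed in their calls in NPCs. The difference between neighbours was not tested. On chromosome 15, GABRG3 fell while its neighbour GABRA5 was not called. On chromosome 4, GABRB1 rose while its neighbours GABRA2 and GABRA4 were not called. These neighbours had at most 11 counts in any NPC library and log2 fold changes of 0.55 and 0.67. On chromosome 5, GABRB2 fell and GABRA6, whose annotated span overlaps it on the opposite strand by 1982 bases, had higher counts in the KO libraries. The library kit keeps strand, and strand was set in the mapping of stranded data, but the strand option of the counting is not given in the sources used here, so reads of overlapping genes may have been lost or misplaced. Other members overlap a gene on the opposite strand as well, among them GRM3 (GRM3-AS1), GRIK1 (BACH1) and GRIK5 (ZNF574).

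**Figure D4:**
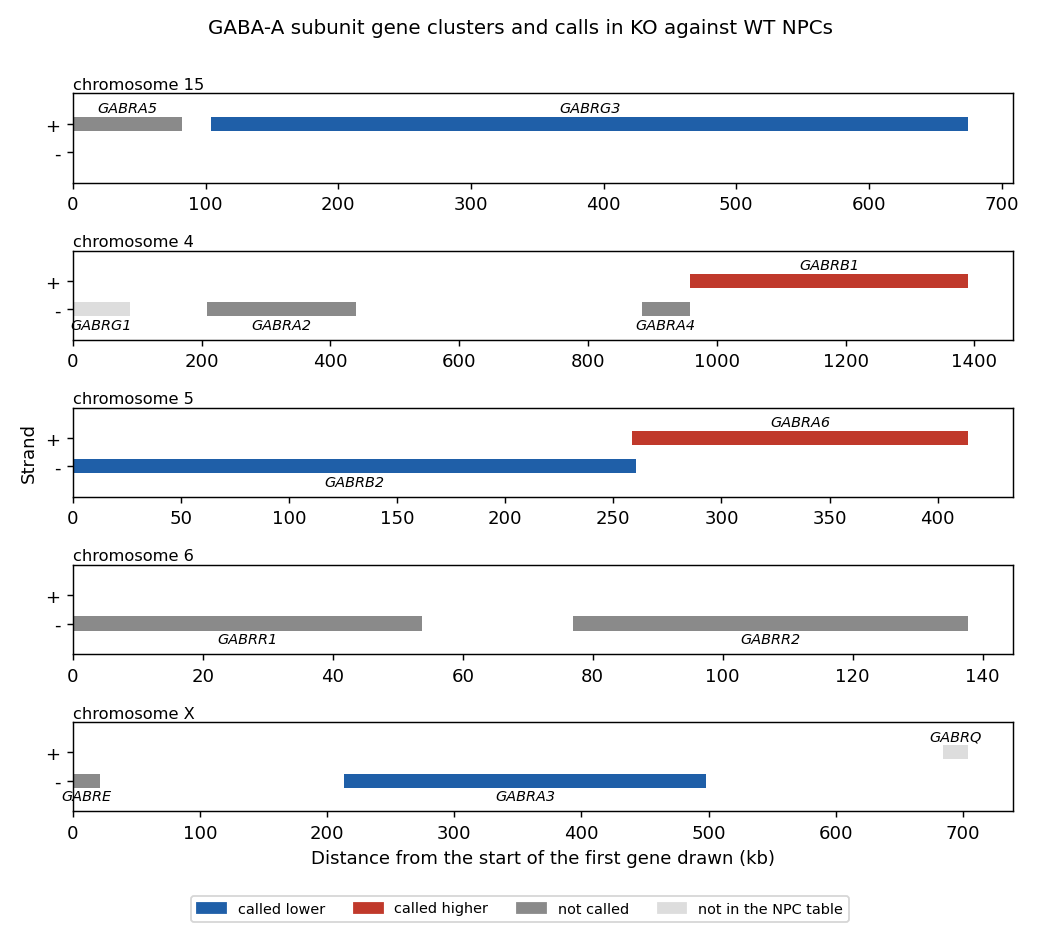
Position of 13 GABA-A subunit genes that lie within 1000 kb of each other, as distance in kb from the start of the first gene drawn, with the + strand above the - strand and the colour giving the call in KO against WT NPCs. On chromosome 15 the GABRA5 gene, which was not called, lies beside GABRG3, which was called lower.

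The GABA-B receptor pair shifted in its balance. GABBR2, the subunit that couples to the G protein, had 2 and 4 counts in WT and 26 and 28 in KO libraries, an 8.29-fold increase to 1.28 and 1.26 CPM (log2 fold change 3.05, SE 0.67, adjusted p = 0.0152). Without KO library S1 or S2 its adjusted p was 0.0899 or 0.0834. GABBR1, which binds GABA, was at 8.38 and 15.7 CPM in WT and 7.31 and 6.22 CPM in KO libraries and was not called (log2 fold change -0.83, adjusted p = 0.104). There were 88.5 and 76.5 GABBR1 counts per GABBR2 count in WT NPCs and 5.69 and 4.93 in KO NPCs, with 95% counting intervals of 24.1 to 736.5 and 29.6 to 282.6 against 3.73 to 9 and 3.27 to 7.69. In all 6 HEK293T libraries the ratio was below 1, from 0.214 to 0.778.

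Partner genes of the receptors changed in both directions. Of 38 tested genes for glutamate transport, auxiliary subunits and scaffolds, 13 fell and 5 rose, with a median log2 fold change of -0.98. CACNG4, an auxiliary subunit of AMPA receptors, fell from 80.8 ± 23.6 to 8.10 ± 0.63 CPM (SD, n = 2 each, adjusted p = 0.000157, edgeR). CNIH2, another AMPA receptor partner, fell from 36.1 ± 0.85 to 11.5 ± 3.45 CPM, and the scaffold genes SHANK3 and DLG2 fell by 1.41 and 3.44 on the log2 scale. HOMER2, a scaffold of metabotropic receptors, rose with a log2 fold change of 1.37 (adjusted p = 0.0021). Of 20 tested GABA partner genes, 4 fell and 2 rose, with a median of 0.13. ABAT, which breaks down GABA, fell from 114.7 ± 4.58 to 16.7 ± 1.45 CPM (adjusted p = 3.71e-05), and NLGN2 and KCTD12, an adhesion protein of inhibitory synapses and an auxiliary subunit of GABA-B receptors, fell by 1.50 and 1.53 on the log2 scale. GAD2, which makes GABA, was at 0.757 and 3.43 CPM in WT and at most 0.0494 CPM in KO libraries (adjusted p = 0.0108). SLC6A12, a betaine and GABA transporter, rose from at most 0.0512 CPM to 3.38 and 3.90 CPM, and PLCL1, which binds GABA-A receptors, rose with a log2 fold change of 3.45. Of 15 tested receptors for glycine, acetylcholine and serotonin, 0 rose and 1 fell (CHRNB2, adjusted p = 0.00367), with a median of 0.48. All these lists stand beside the background of 8.36% lower and 8.45% higher given above.

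In HEK293T cells no receptor gene was called in KO against WT libraries. Of the 37 genes, 15 had the 6 counts in total that the test needed, and edgeR called 0 higher and 0 lower among them, where 0.478% of 19018 genes were called higher and 0.0105% lower. At an unadjusted p below 0.05 there was 1 of 15, beside 7.12% of all genes, and DESeq2 and voom also called 0. None of the 4 highest genes per length was called. GRIN2D was at 1.98 ± 0.29 RPKM in WT and 1.87 ± 0.32 RPKM in KO libraries, GABRA3 at 1.96 ± 0.30 and 1.87 ± 0.14 RPKM, GRID1 at 1.09 ± 0.03 and 1.35 ± 0.10 RPKM, and GABBR2 at 0.721 ± 0.070 and 0.744 ± 0.321 RPKM (SD, n = 3 each). GRID1 alone of these had KO libraries entirely above WT libraries, at 8.69, 7.77 and 8.89 against 7.04, 6.68 and 6.71 CPM (log2 fold change 0.31, adjusted p = 0.802). GABBR1 also had its KO libraries, at 2.14, 1.81 and 1.98 CPM, above its WT libraries at 1.27, 1.03 and 1.73 CPM (log2 fold change 0.55, adjusted p = 0.778). The median log2 fold change of the 15 genes was 0.0921, beside 0.0106 over all genes. The partner lists gave 0 calls as well, over 30, 18 and 13 tested genes.

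WT NPCs and WT HEK293T cells were compared to show where these genes are used without the knockout. Each cell type has its own table, so cell type and table cannot be told apart. Of the 32 genes tested, 22 were called higher in NPCs and 4 lower, beside 25.2% and 15.5% of 19255 genes, and the median log2 difference was 4.68, or 3.23 with 12 genes at their bound, against 0.125 over all genes. In WT HEK293T libraries 17 of the 37 genes had no counts, the AMPA genes among them. GRIA1 was at least 1409-fold, GRM3 at least 207-fold, GRIN2B at least 155.5-fold, GABRA5 at least 58.9-fold and GRIK1 at least 46.7-fold higher in NPCs, against the floor of 3 counts per library. GRIK5 had 19 counts over the 3 WT HEK293T libraries and was higher in NPCs with a log2 difference of 7.31 (adjusted p = 4.18e-07). The 4 genes lower in NPCs were GABBR2 (log2 difference -5.11, adjusted p = 1.1e-05), GRID1 (-3.83, adjusted p = 5.24e-06), GRIN2D (-1.87, adjusted p = 8.54e-05) and GABRD (-1.59, adjusted p = 0.0117, and 0.0647 without WT NPC library S5). GABRA3 had close levels in WT cells, at 8.38 and 7.78 CPM in NPCs and 7.28, 9.50 and 7.62 CPM in HEK293T (log2 difference -0.0017, SE 0.24).

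Whether the knockout acted differently in the 2 cell types was tested as the difference between its effects, with 1 mean per group over all 10 libraries. Of the 32 genes tested, 2 were called with a larger KO to WT ratio in NPCs and 3 with a smaller one, beside 6.01% and 6.22% of all genes. GABBR2 (difference 3.03 on the log2 scale, SE 0.72, adjusted p = 0.0144) and GRIN2D (1.20, SE 0.36, adjusted p = 0.043) were the former. GABRD (-2.61, SE 0.77, adjusted p = 0.0392) and GRM3 were among the latter. GRM3 had a single count in the 6 HEK293T libraries, in KO library S18, so its difference is no measure of size, and without that library its adjusted p was 0.9999. Single libraries decided the other calls as well. GRIN2D lost its call in 7 of the 10 fits that leave out a library (adjusted p = 0.0636 to 0.176, without S15, S17, S20, or any NPC library) and GABRD in 8 (0.0565 to 0.191, without any but S18 and KO NPC library S1). GABBR2 lost it without WT NPC library S3 (0.0789). Of the 32 genes, 17 were below the count filter in HEK293T, and where a gene had no counts there its knockout effect is undefined, so that for GRIA1, GRIN2B, GRIK1 and GABRA5 the test says nothing.

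**Figure D5:**
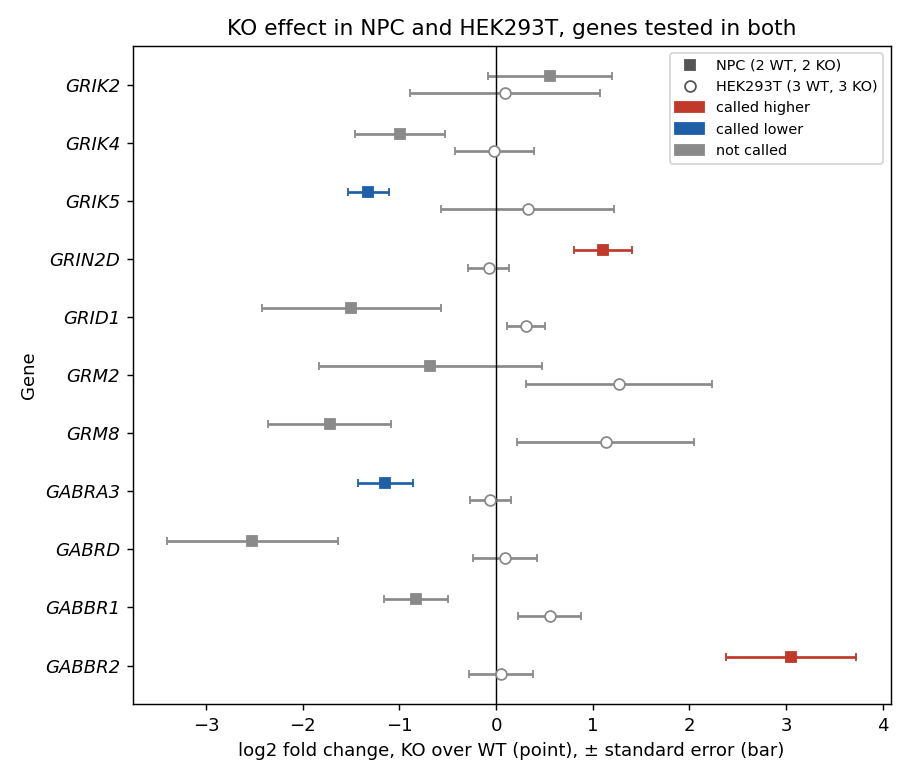
Fitted log2 fold change of KO over WT, with its standard error, for 11 genes tested in both cell types (filled squares NPCs, open circles HEK293T), coloured by call. In HEK293T no gene was called, and GABBR2 and GRIN2D are red in NPCs alone.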

How the data were processed

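RNA-seq reads of 10 libraries were mapped by the authors to hg19 with HISAT2 and counted on genes with featureCounts, and the authors deposited 1 table of raw counts per gene for each cell type. For stranded data the mapping was set to RF strandness, only uniquely mapped reads were counted, and the versions, the gene annotation and the strand option of featureCounts are not given in the sources used here. The number of table columns that belong to no sample was 0. Libraries were grouped by their labels (3 WT and 3 KO for HEK293T, 2 WT and 2 KO for NPCs). Libraries of one group differed by more than sampling noise (chi-square per degree of freedom 10.5 to 81.9), so each counted as 1 replicate. Identifiers were joined to symbols through GENCODE lifted to hg19, and promoter windows were read from GRCh37.

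Genes with fewer counts in total than libraries (6 in HEK293T, 4 in NPCs, 10 over both) were left out. Counts were scaled by TMM and tested with edgeR 4.0.16 (quasi-likelihood, Benjamini-Hochberg) in R 4.3.3, with calls at an adjusted p below 0.05 and a fold change above 2. The thresholds and filter follow the study, whose voom test in limma 3.58.1 was an alternative, as were DESeq2 1.42.0, other scalings, filters and thresholds, a fit of all 10 libraries and leaving out each library. The code was tested on simulated data with the same spread for every gene. Only genes above a minimum mean count were changed there, so genes with few counts were not covered. Members called in any comparison or with a mean of at least 1 CPM in a group were named with values, and of each partner list at most 6 called genes with the lowest adjusted p. All members entered the counts and medians, and some are not reported here by name. The members and lists were chosen with earlier results of these data known. Intervals (95%, exact) and the floor of 3 counts cover counting error only, since the reads carry no molecular identifiers.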

Additional observations from a re-analysis of the deposited data

Results flagged for a closer look

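For GABBR2, GRIN2D, GABRD and GRM3 the effect of the knockout passed a test of the difference between NPCs and HEK293T cells, given as the effect in NPCs minus that in HEK293T on the log2 scale. GABBR2 differed by 3.03 and GRIN2D by 1.20, since both rose in KO NPCs and had HEK293T effects near 0 (0.0522 and -0.0758). GABRD differed by -2.61, with an NPC effect of -2.52 (adjusted p = 0.0735) and an HEK293T effect of 0.0893. Neither passed the test fitted to its own cell type. In the fit of all 10 libraries, which also gave the difference, GABRD was called lower in KO NPCs. GRM3 differed by -13.86, a value that depends on the prior count, because 1 count in 6 libraries is all that HEK293T cells gave. The shares of members called, 6.25% larger and 9.38% smaller, stand beside 6.01% and 6.22% of all genes. Over the 10 fits that leave out a library, GABRD lost its call in 8, GRIN2D in 7, GABBR2 in 1 (without WT NPC library S3) and GRM3 in 1 (without KO HEK293T library S18), and with voom GABBR2, GRIN2D and GABRD were not called (adjusted p = 0.0526, 0.0596 and 0.053).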

How the results depend on the processing

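In NPCs the 13 lower and 4 higher calls became 8 and 1 at an adjusted p below 0.01, and leaving out a library gave 8 to 16 lower and 0 to 4 higher calls. With voom 9 were called lower, and GABRB2, GRIA4 and GRIN2A were among those lost. With library size alone, under which the all-gene median went from -0.0219 to -0.13, GRIN2D lost its call. For the difference between cell types, the 2 larger and 3 smaller calls became 2 and 8 with DESeq2, 0 and 6 with voom, 1 and 6 with library size alone, under which the all-gene median went from -0.0253 to -0.238, and 0 and 0 at an adjusted p below 0.01. Leaving out a library gave 0 to 2 larger and 1 to 4 smaller calls. The cause of these changes was not tested. In HEK293T cells calls were 0 under each alternative run, and WT comparisons kept within 1.5 times their counts. No called receptor gene changed direction in the comparison where it was called under the alternatives run. The direction of genes that were not called, such as GABRA5 in KO against WT NPCs, was not followed across them. No paired analysis was possible because the labels give no pairs of WT and KO libraries. Members at or below 3 counts in every HEK293T library of a group, 23 in WT and 22 in KO, could not be compared there at this depth.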
